A study of Mus musculus with 12 samples.

Results

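The nuclear genes for the mitochondrial protein import channels and for mitochondrial fusion, fission and architecture were followed in bone marrow-derived macrophages (BMMs) of wild-type (WT) and IGF2BP2 knockout (KO) mice. Members were every gene whose symbol in the gene table begins with Tomm or Timm and a digit (25 import members), and Mfn1, Mfn2, Opa1, Oma1, Dnm1l, Fis1, Mff, Samm50, Immt and Pink1 (10 dynamics members). They make up 35 of the 38887 genes in each library table, and the rule used names only, no measured value. In the KO mice, loxP sites flanked exons 4 and 5 of Igf2bp2 (strain B6.Cg-Igf2bp2tm1.1Thor/J) and Cre was expressed from the Lyz2 locus (29P2-Lyz2tm1(cre)Ifo/J), which is active in myeloid cells in general and not in macrophages alone. The WT animals were littermates without the floxed allele, which carried Cre in some cases. Bone marrow cells of both genotypes were grown for 6 days with 50 ng/ml M-CSF, and then received either nothing (M0) or IL-4 at 20 ng/ml during 8 h (M2), with 3 libraries in each of the 4 groups.

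Nearly all mitochondrial proteins are encoded in the nucleus and made in the cytosol. Most enter through the TOM complex of the outer membrane, after which the TIM23 complex passes proteins with a cleavable presequence into the matrix or the inner membrane, while the small TIM chaperones of the intermembrane space carry hydrophobic proteins, such as metabolite carriers, to the TIM22 complex. The mitochondrial network is remodelled by fusion (the mitofusins on the outer membrane, OPA1 on the inner membrane) and by fission, in which DRP1, the product of Dnm1l, is recruited by receptors such as MFF. OMA1 is a stress-activated protease that cleaves OPA1. IL-4-treated macrophages are known to rely on oxidative phosphorylation.

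Untreated libraries held 24942666 to 29832430 counts (WT) and 26568719 to 37054582 counts (KO), and IL-4-treated libraries 20011792 to 22744704 (WT) and 27347077 to 39632770 (KO). Counts of Igf2bp2, which include the exons that remain, ranged in M0 from 76.5 to 118 CPM in WT and from 84.9 to 95.9 CPM in KO, and in M2 from 178 to 233 CPM in WT and from 129 to 146 CPM in KO. Here CPM are counts per 1000000 of the TMM-scaled total of a library. The genotypes overlapped in M0, and KO was lower in M2. All 6 macrophage markers were found, with a summed level of 4327 to 5625 CPM. In M0 this sum was higher in KO without overlap, at 4720 to 4822 against 4327 to 4716 CPM in WT. In M2 the genotypes overlapped, at 5254 to 5625 CPM in WT and 5265 to 5473 CPM in KO. Single markers moved in both directions in M0, with means of 927 (WT) and 1265 CPM (KO) for Itgam and of 915 and 810 CPM for Adgre1. Markers of T cells, B cells, erythroid cells and mast cells stayed at 0.584 CPM or less and those of neutrophils at 8.90 CPM or less. In M0 the neutrophil markers were lower in KO without overlap, at 3.00 to 3.07 against 4.01 to 8.90 CPM in WT. Those of T cells were so too, at 0.212 to 0.304 against 0.394 to 0.584 CPM. Cd3e, Cd3g and Cd8a were at 0 in every library, so that the T cell sum was that of Cd4 alone. Ly6g was at 0 as well, and the neutrophil sum was almost wholly that of S100a8 and S100a9. Dendritic cell markers reached 0.478 CPM in M0 and 2.11 CPM in M2. The 5 fibroblast markers were lower in KO, at 29.8 to 53.3 CPM in WT M0 against 7.94 to 30.0 in KO M0, and at 32.8 to 60.2 in WT M2 against 9.02 to 26.6 in KO M2, with Col1a1 and Col1a2 as the highest of them. The part of these markers in the genotype results was not tested. The third WT library of each treatment and the first KO M2 library differed most from the others of their groups. Fewer macrophages and less of an mRNA per macrophage cannot be told apart in these bulk samples.

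To show the start regions of 5 members, promoter stretches from RefSeq (GRCm38.p6) are printed from 150 bases before the RefSeq start to 30 bases after it. They are in lower case, with matches to the searched motifs in capitals. By the GENCODE gene coordinates the stretch of Timm8a1 lies inside the gene and that of Tomm20 wholly before it. Timm8a1 and Timm10 are the import members that edgeR called lower in KO M0, Tomm40 was the one called higher in KO M2, Opa1 rose with IL-4, and Tomm20 holds more than one of the motifs. They lie at chrX:134541641-134541820 (minus strand) for Timm8a1, chr2:84826871-84827050 (plus strand) for Timm10, chr7:19715400-19715579 (minus strand) for Tomm40, chr8:126945892-126946071 (minus strand) for Tomm20 and chr16:29579184-29579363 (plus strand) for Opa1.
Timm8a1: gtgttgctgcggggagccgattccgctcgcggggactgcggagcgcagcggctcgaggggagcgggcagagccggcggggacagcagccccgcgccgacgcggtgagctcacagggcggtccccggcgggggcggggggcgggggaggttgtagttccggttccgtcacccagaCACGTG
Timm10: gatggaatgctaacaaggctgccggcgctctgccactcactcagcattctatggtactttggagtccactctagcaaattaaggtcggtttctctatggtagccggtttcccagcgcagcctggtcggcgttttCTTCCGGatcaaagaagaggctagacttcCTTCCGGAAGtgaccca
Tomm40: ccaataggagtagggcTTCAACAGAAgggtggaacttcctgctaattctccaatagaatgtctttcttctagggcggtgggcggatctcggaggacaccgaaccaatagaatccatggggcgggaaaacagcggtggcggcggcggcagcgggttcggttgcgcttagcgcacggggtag
Tomm20: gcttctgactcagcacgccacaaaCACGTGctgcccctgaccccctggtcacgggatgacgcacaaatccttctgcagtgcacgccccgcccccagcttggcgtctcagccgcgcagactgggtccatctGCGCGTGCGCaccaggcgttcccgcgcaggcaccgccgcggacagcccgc
Opa1: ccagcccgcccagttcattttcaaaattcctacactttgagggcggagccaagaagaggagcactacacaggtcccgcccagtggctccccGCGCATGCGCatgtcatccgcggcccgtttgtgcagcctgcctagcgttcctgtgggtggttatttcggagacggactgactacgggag
The capitals mark an E-box in Timm8a1, ETS letters in Timm10, STAT6 letters in Tomm40, an E-box followed by NRF1 letters in Tomm20 and NRF1 letters in Opa1.

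The searched motifs were GCGCA and GCGC with 1 base between them for NRF1, a regulator of nuclear genes for mitochondrial proteins, CCGGAAG for ETS factors, the E-box CACGTG and TTC and GAA with 4 bases between them for STAT6, the factor that IL-4 activates, each on both strands. None of the matches to different motifs overlap in the printed stretches, whereas the last ETS letters of Timm10 are read on both strands and overlap themselves. In the whole window, from 250 bases before to 50 bases after the start, ETS letters were found in 9 of 22 import members (40.9%) and in 4 of 10 dynamics members (40.0%), against 9.93% of all 27025 genes with such a window. NRF1 letters were found in 4 of the 10 dynamics members (40.0%, namely Pink1, Oma1, Opa1 and Immt) and in 2 of the 22 import members (9.09%, Timm8b and Tomm20), against 5.19% of all genes. The E-box was found in 5 import members (22.7%) and in 0 dynamics members, against 8.09% of all genes. STAT6 letters were found in 2 import members (9.09%, Tomm40 and Timm22) and in 1 dynamics member (10.0%, Samm50), against 8.01%. A window was present for 32 of the 35 members, the others being Tomm40l, Timm21 and Tomm7, and a match describes letters only. The 27025 genes were not limited to the 12846 that were fitted here. Among the members counted are Timm8a2 (ETS letters) and Tomm20l (E-box), which were not fitted either.

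Of the 35 members, 33 had enough counts to be fitted. The other two, Timm8a2 and Tomm20l, relatives of Timm8a1 and Tomm20, were at or near 0 in all libraries, with a TPM of at most 0.0700 and of 0. TPM (transcripts per 1000000) is scaled by gene length and permits comparison of levels between genes within these libraries. On this scale the mean over the 12 libraries ran from 188 TPM for Tomm22, the central receptor of the TOM complex, and 188 TPM for Timm23, the channel of the presequence translocase, down to 15.9 TPM for Timm21. Tomm22 and Timm23 were not separable, with ranges of 172 to 216 and 168 to 209 TPM, and both stood at the 93.3rd percentile of the fitted genes. Tomm6 (178 TPM), a small subunit of the TOM channel, and Samm50 (165 TPM), which inserts barrel proteins into the outer membrane, followed, each with a range that overlapped its neighbour's.

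Within the TOM complex, Tomm40, the pore itself, averaged 122 TPM, while the receptors Tomm70a and Tomm20 averaged 77.2 and 46.9 TPM. Among the small TIM chaperones, Timm13 was highest at 100 TPM, followed by Timm8b (58.2), Timm10 (50.8), Timm9 (30.5) and Timm8a1 (24.2). Timm10b was the highest of the TIM22 group at 86.5 TPM, and Timm29, a subunit of that complex, the lowest at 26.4 TPM. Of the dynamics members, the fission receptors Fis1 and Mff (both 137 TPM) and Immt (126 TPM), the core of the cristae-organizing MICOS complex, were above the fusion genes, of which Mfn2 was highest at 54.1 TPM, with Opa1 at 43.0 and Mfn1 at 25.3 TPM, and above Oma1 at 20.0 TPM. Pink1, the kinase that marks damaged mitochondria for mitophagy, was the lowest dynamics member at 17.6 TPM.

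**Figure D1:**
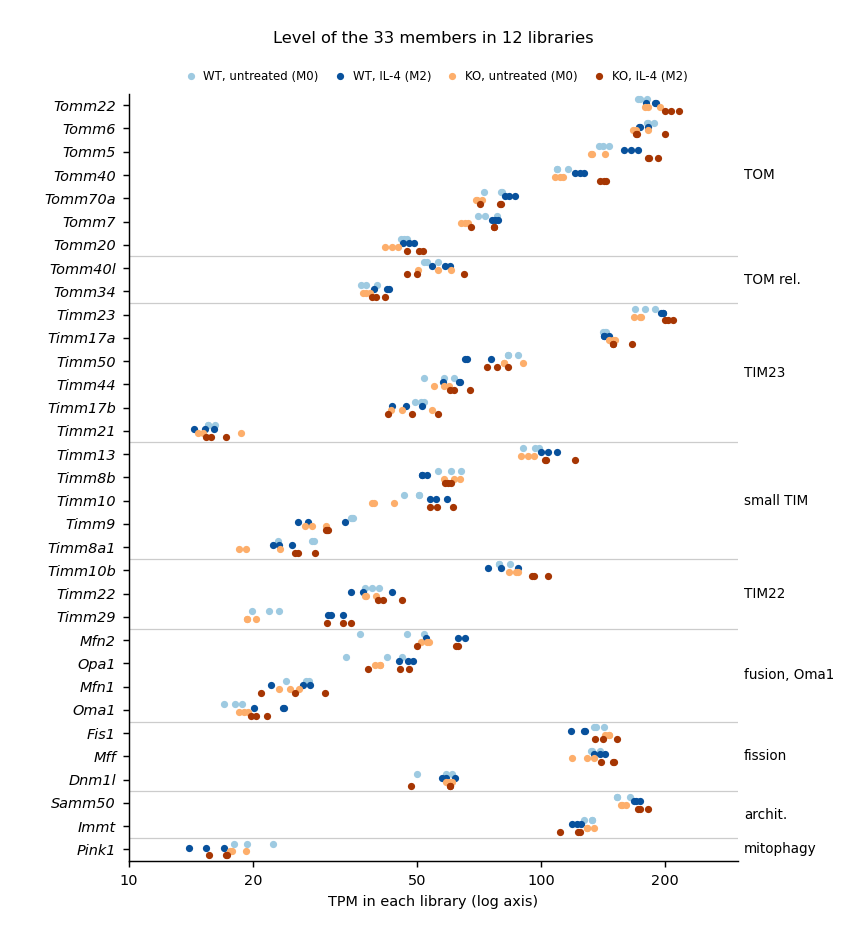
TPM (log axis) of the 33 fitted members in the 12 libraries, ordered by role and by mean level, with 1 point per library and the 4 groups in separate colours. Members range from 15.9 TPM (Timm21) to 188 TPM (Tomm22 and Timm23), and the ranges of neighbouring genes overlap in many cases.

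The import members were first compared between IL-4-treated and untreated macrophages. In WT macrophages 8 of 23 import members were higher after IL-4 and 0 lower (edgeR quasi-likelihood test, adjusted p under 0.05), which is 34.8% where 50.0% of all fitted genes were called, 24.9% higher and 25.1% lower. In KO macrophages 16 of 23 were higher and 0 lower, 69.6% where 52.8% of all genes were called, 26.8% higher and 26.0% lower. The 8 genes called in WT were all among the 16 called in KO, that is 8 of 8 and 8 of 16. The median log2 fold change of the import members was 0.127 in WT and 0.235 in KO, against -0.008 and 0.014 over all fitted genes. The WT median was 0.072 without the first WT M0 library and 0.065 with limma on log2(TPM + 1).

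The largest response was that of Timm29, the TIM22 subunit. Its values were 38.6, 37.1 and 35.6 CPM in WT M0 and 55.1, 54.7 and 58.8 CPM in WT M2. In KO they were 33.0, 35.3 and 33.5 CPM in M0 and 57.3, 61.5 and 59.2 CPM in M2. Every treated library lay above every untreated one, and the log2 fold change was 0.60 in WT (SE 0.05, edgeR adjusted p = 9.67e-07) and 0.81 in KO (SE 0.05, edgeR adjusted p = 4.58e-08).

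Tomm5, a small subunit of the TOM channel, measured 42.6, 42.4 and 47.4 CPM in WT M0 and 55.5, 51.5 and 53.7 CPM in WT M2. In KO the values were 44.4, 42.0 and 41.8 CPM in M0 and 66.4, 59.5 and 59.6 CPM in M2. The groups did not overlap in either genotype, with fold changes on the log2 scale of 0.28 in WT (SE 0.06, edgeR adjusted p = 0.00215) and of 0.53 in KO (SE 0.06, edgeR adjusted p = 8.94e-06). Tomm40 behaved alike, as its values of 85.5, 92.9 and 93.7 CPM in WT M0 stood against 107, 104 and 109 CPM in WT M2 (log2 fold change 0.23, SE 0.05, edgeR adjusted p = 0.00205). In KO, Tomm40 measured 90.8, 92.9 and 87.7 CPM in M0 and 129, 121 and 119 CPM in M2 (log2 fold change 0.44, SE 0.05, edgeR adjusted p = 8.1e-06).

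Timm10, which with Timm9 forms the main chaperone of the intermembrane space, was at 16.3, 16.8 and 16.4 CPM in WT M0 and at 19.5, 19.8 and 18.8 CPM in WT M2. In KO it was at 12.8, 14.9 and 13.3 CPM in M0 and at 22.6, 18.8 and 19.6 CPM in M2. Treated and untreated libraries did not overlap, and the log2 fold change was 0.23 in WT (SE 0.08, edgeR adjusted p = 0.0280) and 0.57 in KO (SE 0.08, edgeR adjusted p = 4.41e-05). The call in WT was lost without both WT libraries numbered 3 (edgeR adjusted p = 0.0630) and in 4 of 6 fits that left out 1 library.

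By role, 3 of 7 TOM members were called higher in WT and 6 of 7 in KO, where Tomm6 was the exception (log2 fold change 0.14, edgeR adjusted p = 0.138). Tomm22 measured 88.4, 88.6 and 98.7 CPM in WT M0 and 98.3, 104 and 103 CPM in WT M2 (edgeR adjusted p = 0.0622, and 0.0363 without both WT libraries numbered 3), and in KO 100.0, 94.1 and 95.9 CPM in M0 and 123, 108 and 113 CPM in M2 (log2 fold change 0.25, SE 0.06, edgeR adjusted p = 0.00345). In the TIM23 complex 2 of 6 members were called higher in WT (Timm23 and Timm44, the latter an anchor of the import motor) and 3 of 6 in KO, with Timm17a added. The WT call of Timm44 was kept in 4 of 6 fits without 1 library (edgeR adjusted p up to 0.0601) and the KO call of Timm17a in 3 of 6 (up to 0.0916). In both cases the third WT M0 or the first KO M2 library was among those without which it was lost. With limma on log2(TPM + 1) Timm44, Tomm34 and Tomm70a were called in neither genotype, and Timm17a not in KO. Timm23 rose from 98.7, 112 and 113 to 124, 123 and 124 CPM in WT and from 105, 106 and 103 to 135, 130 and 127 CPM in KO (edgeR adjusted p = 0.00674 and 0.000182). All 3 TIM22 members were called in KO and 1 of 3 in WT (the KO call of Timm22 was lost with limma on log2(TPM + 1), at 0.15 and an adjusted p of 0.159), and of the small TIM chaperones 3 of 5 in KO (Timm8a1, Timm10 and Timm13) and 1 of 5 in WT (Timm10). Timm10b, the highest TIM22 member, was at 23.0, 23.4 and 26.8 CPM in WT M0, 25.0, 24.0 and 27.0 in WT M2, 24.3, 25.7 and 25.2 in KO M0 and 32.0, 27.3 and 28.4 CPM in KO M2, and was called in KO (log2 fold change 0.22, edgeR adjusted p = 0.0253). This call was lost in 3 of 6 fits without 1 library, among them the one without the first KO M2 library (log2 fold change 0.15, edgeR adjusted p = 0.10). The KO call of Tomm7 was kept in 4 of 6 such fits and was also lost without the first KO M2 library. Timm13, the highest small TIM chaperone, measured 55.4, 61.6 and 63.9 CPM in WT M0 and 68.6, 66.5 and 72.3 CPM in WT M2 (edgeR adjusted p = 0.0664). In KO it measured 60.6, 59.5 and 57.4 CPM in M0 and 84.7, 67.9 and 68.1 CPM in M2 (log2 fold change 0.31, SE 0.08, edgeR adjusted p = 0.00616), without overlap in either genotype. The KO log2 fold change of Timm13 ranged from 0.2 to 0.37 in the 6 fits without 1 library, all of which kept the call. Tomm40l was at 46.0, 50.4 and 52.4 CPM in WT M0, 54.7, 55.8 and 56.2 in WT M2, 51.9, 49.6 and 48.5 in KO M0 and 59.8, 53.2 and 51.5 CPM in KO M2, where the KO groups overlapped. The TOM relatives Tomm34 and Tomm40l had log2 fold changes of 0.19 and 0.16 in WT and of 0.18 and 0.13 in KO, of which those of Tomm34 were called.

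Same-numbered M0 and M2 libraries of a genotype varied together, and with the library number as a block 11 import members were called higher in WT and 2 lower, where 54.6% of all genes were called. These 2 were Timm9 (log2 fold change -0.23, edgeR adjusted p = 0.0232, against 0.0550 without the block) and Timm50, the receptor of the TIM23 complex. Calls gained in WT were those of Tomm22 (edgeR adjusted p = 0.0196), Timm13 (0.0229) and Tomm40l (0.0158). In KO the block gave 18 import members higher and 0 lower (58.2% of all genes were called), with Tomm40l (0.0373) and Timm9 (0.0459) added. On the TPM scale, with limma on log2(TPM + 1), 5 import members were higher and 3 lower in WT (Timm9, Timm8b and Timm50) and 11 higher in KO, where 44.4% and 45.5% of all genes were called, while the median over all genes stood at -0.054 in WT and -0.055 in KO.

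**Figure D2:**
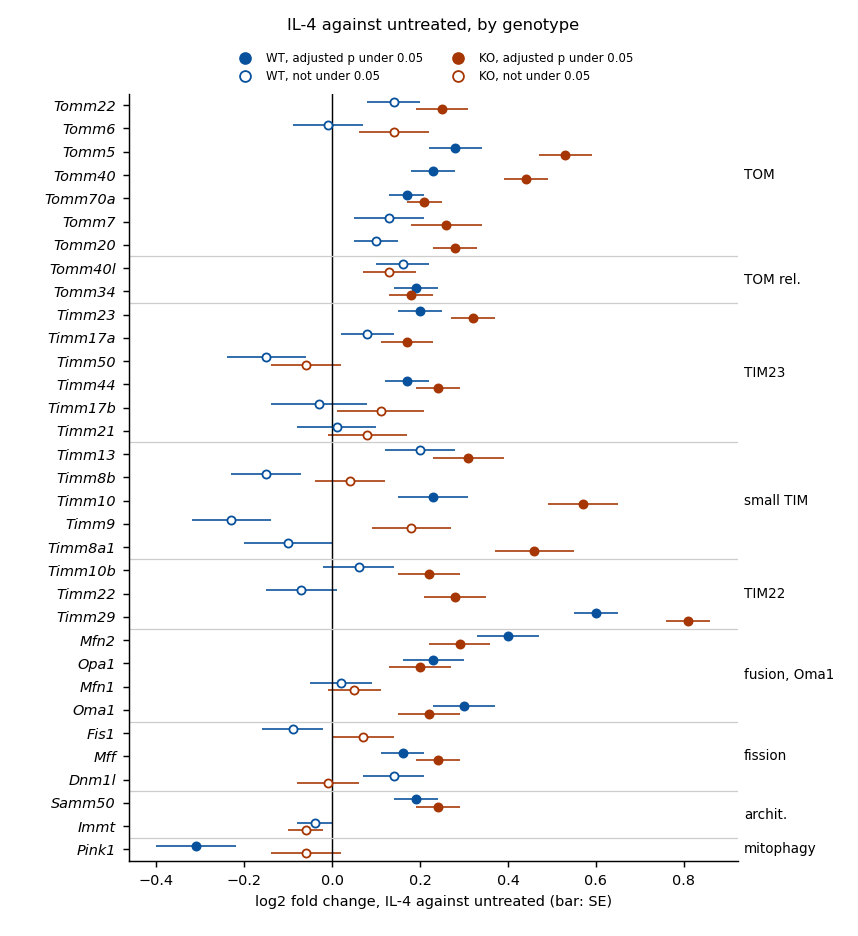
Log2 fold change of IL-4 against untreated for the 33 fitted members in WT (blue) and KO (brown), with the SE as bars and filled symbols for an adjusted p under 0.05. Timm29 lies farthest to the right in both genotypes (0.60 and 0.81), Pink1 farthest to the left in WT (-0.31), and 16 import members are filled in KO against 8 in WT.

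Among the dynamics members, edgeR called 6 of 10 in WT, 5 higher and 1 lower, which is 60.0% where 50.0% of all fitted genes were called, and 5 of 10 in KO, all higher, which is 50.0% against 52.8%. On the TPM scale limma called 3 higher and 2 lower in WT (Fis1 and Pink1) and 2 higher and 1 lower in KO (Immt), where 44.4% and 45.5% of all genes were called. In edgeR Mfn2, Oma1, Opa1, Mff and Samm50 were called higher in both genotypes, and these include the fusion genes Mfn2 and Opa1. The median log2 fold change was 0.147 in WT and 0.131 in KO, and 0.058 and 0.071 with limma on log2(TPM + 1).

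Mfn2, a mitofusin of the outer membrane, was at 90.7, 88.2 and 78.4 CPM in WT M0 and at 120, 114 and 105 CPM in WT M2. In KO it was at 94.4, 92.0 and 91.2 CPM in M0 and at 106, 119 and 114 CPM in M2. No treated library reached down to an untreated one, with log2 fold changes of 0.40 in WT (SE 0.07, edgeR adjusted p = 0.000296) and 0.29 in KO (SE 0.07, edgeR adjusted p = 0.00255).

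Oma1 rose from 18.6, 17.7 and 18.0 CPM to 21.5, 21.4 and 24.1 CPM in WT (log2 fold change 0.30, SE 0.07, edgeR adjusted p = 0.00345) and from 18.7, 17.8 and 19.5 CPM to 23.7, 20.5 and 21.2 CPM in KO (log2 fold change 0.22, SE 0.07, edgeR adjusted p = 0.0184). The KO call of Oma1 was lost in 2 of 6 fits without 1 library, 1 of them without the first KO M2 library (edgeR adjusted p = 0.0732). Opa1, its substrate, rose from 104, 101 and 87.7 CPM to 117, 116 and 111 CPM in WT (log2 fold change 0.23, SE 0.07, edgeR adjusted p = 0.0156), a call that was lost in 2 of 6 fits without 1 library, 1 of them without the third WT M0 library (edgeR adjusted p = 0.0576), and with limma on log2(TPM + 1) (adjusted p = 0.104). In KO, Opa1 measured 93.7, 97.6 and 95.2 CPM in M0 and 98.5, 116 and 114 CPM in M2 (log2 fold change 0.20, SE 0.07, edgeR adjusted p = 0.0341), where the first KO M2 library stood just above the untreated ones. The call for Opa1 in KO was kept in 1 of 6 fits without 1 library (edgeR adjusted p from 0.00524 to 0.125). On the TPM scale, limma gave log2 fold changes of 0.14, 0.11 and 0.11 for Mfn2, Oma1 and Opa1 in KO, and none of these was called (adjusted p = 0.399, 0.262 and 0.434). Mfn1, the other mitofusin, had log2 fold changes of 0.02 in WT and 0.05 in KO and was called in neither.

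Samm50 rose from 131, 143 and 140 CPM to 160, 158 and 155 CPM in WT (log2 fold change 0.19, SE 0.05, edgeR adjusted p = 0.00799) and from 138, 143 and 140 CPM to 177, 158 and 161 CPM in KO (log2 fold change 0.24, SE 0.05, edgeR adjusted p = 0.00155). Of the fission genes, the receptor Mff was called by edgeR in both genotypes (0.16 and 0.24), although in WT in 4 of 6 fits without 1 library and not with limma on log2(TPM + 1). Dnm1l (0.14 and -0.01) was not called in either without the block, and was called higher in WT with it (edgeR adjusted p = 0.0332). Fis1 was not called by edgeR, and limma on log2(TPM + 1) called it lower in WT (-0.14, adjusted p = 0.0367). Fis1 was at 49.4, 52.2 and 57.4 CPM in WT M0, 51.6, 47.1 and 50.2 in WT M2, 54.4, 55.9 and 55.8 in KO M0 and 64.2, 56.1 and 54.0 CPM in KO M2.

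Pink1 was the dynamics member that edgeR called lower with IL-4 in WT. It was at 25.9, 20.9 and 23.0 CPM in M0 and at 20.7, 18.2 and 17.4 CPM in M2, without overlap (log2 fold change -0.31, SE 0.09, edgeR adjusted p = 0.00971). The adjusted p was 0.0562 without both WT libraries numbered 3. In KO its values were 21.1, 23.0 and 21.0 CPM in M0 and 20.2, 20.9 and 21.2 CPM in M2 (log2 fold change -0.06, SE 0.08, edgeR adjusted p = 0.550). The responses of the genotypes differed by 0.24 (SE 0.12, edgeR adjusted p = 0.312), which was not called.

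KO and WT macrophages were then compared without IL-4. In M0, 2 of 23 import members were called, both lower in KO, which is 8.70% where 9.78% of all fitted genes were called and 4.27% were called lower. Both belong to the small TIM chaperones, of which the 5 fitted members had a median log2 fold change of -0.27, which is the value of the called Timm10. The medians were -0.105 for the TIM22 members, -0.077 for TOM, 0.006 for TIM23 and 0.005 for the TOM relatives. Over the import members as a whole the median was -0.043, and over all genes -0.001. Without 1 library the import median lay between -0.085 (without the first WT M0 library) and -0.008 (without either the second or the third one), so that its size rested on single libraries. Of the dynamics members 0 of 10 were called by edgeR, DESeq2 or limma, and 0 had an unadjusted p under 0.05.

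Timm8a1, the mouse homologue of the gene mutated in Mohr-Tranebjaerg deafness-dystonia syndrome, measured 20.1, 20.6 and 17.8 CPM in WT M0 and 17.2, 14.5 and 13.9 CPM in KO M0. The highest KO library was below the lowest WT library, and the log2 fold change was -0.37 (SE 0.10, edgeR adjusted p = 0.0313, unadjusted p = 0.00223). The call was kept in 2 of 6 fits without 1 library (edgeR adjusted p from 0.0189 to 0.133) and without both WT libraries numbered 3 (0.0171). It was lost with limma on log2(TPM + 1) (0.0589) and with only the 6 M0 libraries (0.0567). Expected counts of Timm8a1 were not whole numbers in all 12 libraries, so that some of its reads were shared with other genes.

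Timm10 measured 16.3, 16.8 and 16.4 CPM in WT M0 and 12.8, 14.9 and 13.3 CPM in KO M0, again without overlap (log2 fold change -0.27, SE 0.08, edgeR adjusted p = 0.0485). This call was kept in 1 of 6 fits without 1 library (edgeR adjusted p from 0.0473 to 0.163). It was lost with DESeq2 (0.0536), with only the 6 M0 libraries (0.0596), with RLE size factors (0.0525), without the filter on low counts (0.0790) and without both WT libraries numbered 3 (0.0705). Its partner Timm9 was at 14.7, 15.2 and 15.8 CPM in WT M0 and at 13.0, 12.2 and 12.1 CPM in KO M0, with -0.29 on the log2 scale (SE 0.09), a difference that missed the threshold in edgeR (adjusted p = 0.0552) and passed it with DESeq2 (0.0439) and without both WT libraries numbered 3 (edgeR adjusted p = 0.0270). The other small TIM chaperones, Timm13 and Timm8b, had log2 fold changes of -0.03 and 0.04. Timm9 shares exon sequence on the opposite strand with Tomm20l, which was at 0.

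In M0 the groups did not overlap, with KO lower, for 7 of the 23 import members, and for none were all KO libraries higher, where 14.9% and 16.2% of all genes did so. The remaining import members had edgeR adjusted p of 0.0573 or more, the value of Tomm70a (log2 fold change -0.14), a receptor for carrier precursors, which was called lower with DESeq2 (adjusted p = 0.0192) and without both WT libraries numbered 3 (edgeR adjusted p = 0.0432). For the dynamics members log2 fold changes lay between -0.10 (Pink1) and 0.11 (Mfn2), with a median of 0.028. The fibroblast markers were lower in KO in M0 as well, and their summed level was 29.8 to 53.3 CPM in WT against 7.94 to 30.0 CPM in KO.

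The genotypes were compared in the same way after IL-4. In M2, 1 of 23 import members was called, higher in KO, which is 4.35% where 2.68% of all fitted genes were called and 1.21% were called higher. The log2 fold change was positive for 19 of the 23 (49.7% of all genes), with a median of 0.090 against -0.001 for all genes. All KO libraries were above all WT libraries for 9 of the 23, where 13.1% of all genes were so, and below them for 1, where 11.7% were so.

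The called gene was Tomm40, at 107, 104 and 109 CPM in WT M2 and 129, 121 and 119 CPM in KO M2 (log2 fold change 0.21, SE 0.05, edgeR adjusted p = 0.0477, unadjusted p = 0.00120). The call was lost in all 6 fits without 1 library (edgeR adjusted p from 0.0644 to 0.176) and with RLE size factors (0.0505), with limma on log2(TPM + 1) (0.0562), with the block (0.0643) and with only the 6 M2 libraries (0.0922). It was kept with DESeq2 (0.00603) and without both WT libraries numbered 3 (0.0357). Without the first KO M2 library the log2 fold change was 0.17 (edgeR adjusted p = 0.0999).

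Timm22, the channel of the carrier translocase, and Tomm5 came next and were not called. Timm22 was at 21.4, 22.8 and 19.7 CPM in WT M2 and at 28.4, 23.7 and 24.0 CPM in KO M2, without overlap (log2 fold change 0.25, SE 0.08, edgeR adjusted p = 0.0996), and Tomm5 at 55.5, 51.5 and 53.7 against 66.4, 59.5 and 59.6 CPM (log2 fold change 0.21, SE 0.06, edgeR adjusted p = 0.0936). In fits without 1 library these log2 fold changes ranged from 0.16 to 0.3 for Timm22 and from 0.15 to 0.23 for Tomm5. In KO M2 the first library was the highest of its group for 17 of the 23 import members, and without it the median log2 fold change of the import members was 0.073. Without the third KO M2 library this median was 0.139. Of the dynamics members 0 of 10 were called by edgeR, DESeq2 or limma, and 1 had an unadjusted p under 0.05. This was Fis1, with a log2 fold change of 0.23 (edgeR adjusted p = 0.111) and of 0.15 without the first KO M2 library.

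**Figure D3:**
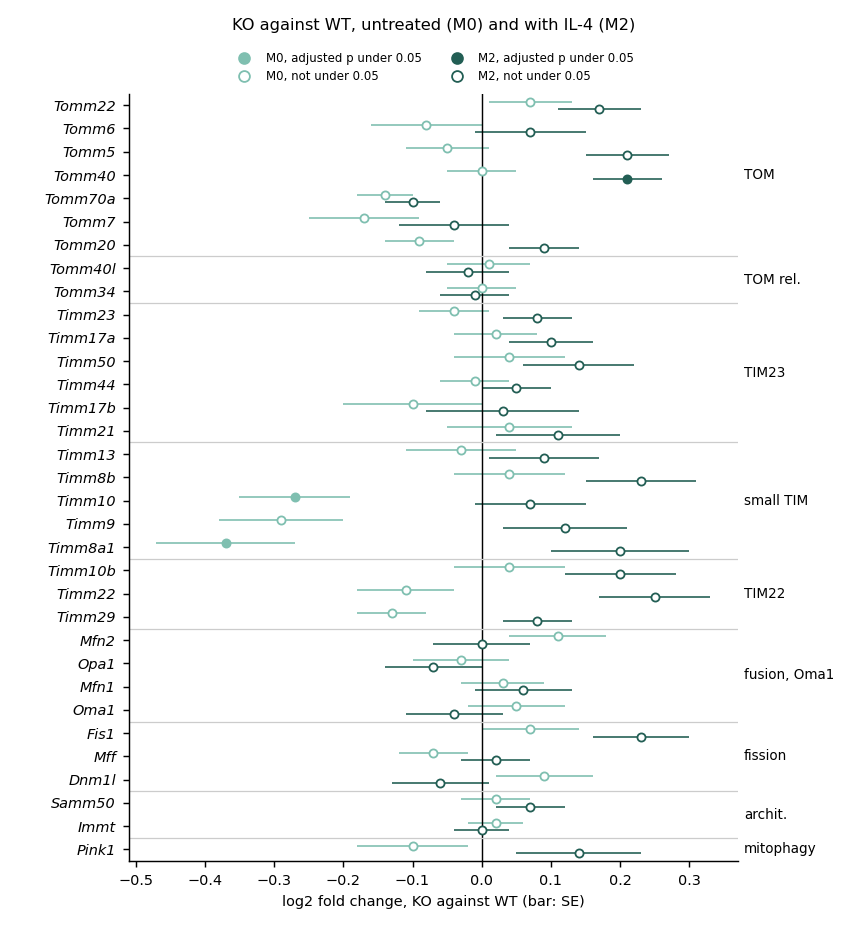
Log2 fold change of KO against WT for the 33 fitted members in M0 (light) and M2 (dark), with the SE as bars and filled symbols for an adjusted p under 0.05. Filled symbols are Timm8a1 and Timm10 in M0, to the left of 0, and Tomm40 in M2, to the right, whereas the open symbols of M2 lie mostly to the right of those of M0 for the import members.

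The difference between the IL-4 responses, KO minus WT, was tested directly. It was called for 1 of 23 import members (4.35% where 3.24% of all fitted genes were called and 1.11% were called higher) and for 0 of 10 dynamics members, none of which had an unadjusted p under 0.05 and none of which was called with DESeq2 or limma. The difference was positive for 21 of the 23 import members, where 51.3% of all genes were positive, with a median of 0.137 against 0.006 for all genes. For the dynamics members 5 of 10 were positive, with a median of 0.004. The comparison shares its libraries with those above, so that it restates the genotype differences in M0 and M2 rather than adding to them. Without the first KO M2 library the median of the import members was 0.072.

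Timm8a1 was the called member. IL-4 left it at 17.4, 18.0 and 19.3 CPM in WT, against 20.1, 20.6 and 17.8 in WT M0 (log2 fold change -0.10, SE 0.10, edgeR adjusted p = 0.421). In KO it rose to 23.2, 19.5 and 20.1 CPM from 17.2, 14.5 and 13.9 (log2 fold change 0.46, SE 0.09, edgeR adjusted p = 0.00112). The responses differed by 0.57 (SE 0.14, edgeR adjusted p = 0.0424). The call was kept with the library number as a block (0.0122) and without both WT libraries numbered 3 (0.0298). It was lost in 10 of 12 fits without 1 library (edgeR adjusted p from 0.0303 to 0.125) and with limma on log2(TPM + 1) (0.112).

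The next smallest p-values belonged to Timm22 and Timm9. IL-4 changed Timm22 by -0.07 in WT (edgeR adjusted p = 0.470) and by 0.28 in KO (edgeR adjusted p = 0.00565), a difference of 0.35 (SE 0.11, edgeR adjusted p = 0.0931). Timm9 was at 11.9, 11.9 and 15.3 CPM in WT M2 and at 14.8, 14.0 and 13.7 CPM in KO M2, so that the third WT library lay above all KO libraries and the other two below them. Its responses of -0.23 and 0.18 differed by 0.41 (SE 0.13, edgeR adjusted p = 0.104), which was called with the block (0.0377) and without both WT libraries numbered 3 (0.0209). The WT response of Timm9 was called at -0.35 without the third WT M2 library (edgeR adjusted p = 0.00182). It was called at -0.33 without both WT libraries numbered 3 (edgeR adjusted p = 0.00504). The differences of Timm29 (0.21), Tomm40 (0.21), Tomm5 (0.25) and Timm10 (0.34) had edgeR adjusted p of 0.158, 0.133, 0.145 and 0.126, and those of Mfn2, Oma1 and Opa1 were -0.11, -0.09 and -0.04 (edgeR adjusted p = 0.591, 0.705 and 0.880).

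**Figure D4:**
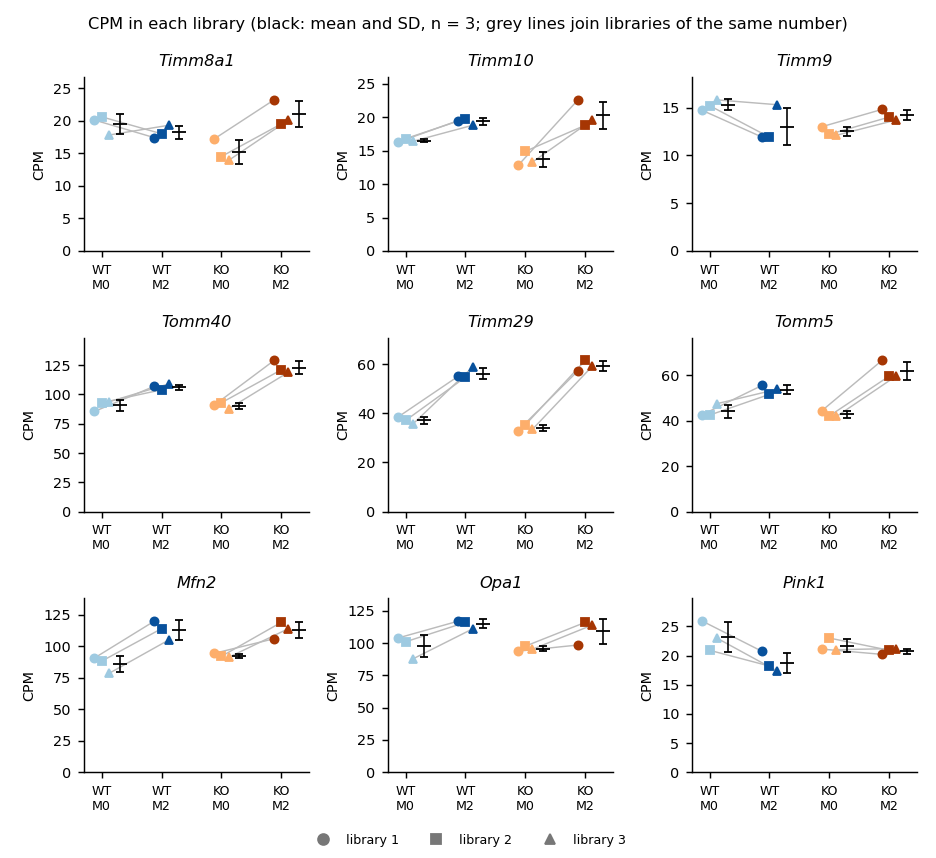
CPM of 9 members in the 12 libraries, with symbols for the library number, grey lines between the M0 and M2 library of the same number, and mean ± SD in black (n = 3). Timm8a1 stays within 17.4 to 20.6 CPM in WT and rises in all 3 KO pairs, while Timm29, Tomm40, Tomm5 and Mfn2 rise in all 6 pairs and Pink1 falls in the 3 WT pairs.

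Summed over the list, the import members took 1815, 1860 and 1845 TPM in WT M0, 1854, 1773 and 1748 TPM in KO M0, 1905, 1886 and 1933 TPM in WT M2 and 2117, 1990 and 1987 TPM in KO M2. The KO M2 libraries were above all others. The means were 1840 ± 23.2, 1792 ± 55.4, 1908 ± 23.9 and 2031 ± 74.0 TPM (SD, n = 3). The dynamics members summed to 766 ± 26.5, 775 ± 16.6, 786 ± 12.2 and 806 ± 22.7 TPM in the same order, and these groups lay close together.

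Other genes of the import pathway were counted from a list of 24, all of which were fitted. IL-4 raised 11 and lowered 2 of them in WT, and raised 13 and lowered 1 in KO, so that 54.2% and 58.3% were called where 50.0% and 52.8% of all fitted genes were. The matrix chaperonins led in both genotypes, with log2 fold changes of 0.69 and 0.67 for Hspe1 (edgeR adjusted p = 3.37e-06 and 3.33e-06) and of 0.54 and 0.52 for Hspd1 (edgeR adjusted p = 1.49e-05 and 1.79e-05), the partners that fold proteins after import. Mtx3, a metaxin of the outer membrane, changed by 0.46 and 0.38. Grpel1, the nucleotide exchange factor of the import motor, was among the largest changes in WT (0.36, edgeR adjusted p = 0.000161), and Agk, a lipid kinase that is also a TIM22 subunit, in KO (0.38, edgeR adjusted p = 0.000323). Between the genotypes 1 of 24 was called in M0, Chchd4, the receptor of the oxidative pathway that folds the small TIM proteins, which differed by -0.22 on the log2 scale (SE 0.06, edgeR adjusted p = 0.0265). This call was kept in 1 of 6 fits without 1 library (edgeR adjusted p from 0.0254 to 0.130). In M2 and for the difference between the responses edgeR without a block, DESeq2 and limma called 0 of 24 over all 12 libraries, with 2 and 1 genes at an unadjusted p under 0.05. Mtx3 was called lower in KO M2 without both WT libraries numbered 3 (edgeR adjusted p = 0.0297), and the difference of Chchd4 with the block (0.0443).

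A list of 38 other dynamics and mitophagy genes, all fitted, moved in both directions. IL-4 raised 14 and lowered 8 in WT, and raised 12 and lowered 5 in KO, which are 57.9% and 44.7% of the list where 50.0% and 52.8% of all fitted genes were called. Rhot2, a GTPase of the mitochondrial transport machinery, was higher (0.56 and 0.53), while Mtfr2, a fission regulator, fell by 0.97 and 1.21 on the log2 scale, Inf2, a formin that assembles actin at fission sites, by 0.56 and 0.66, and the mitophagy receptor Bnip3 by 0.49 and 0.90. In KO M0, 3 of the 38 were higher and 1 lower, which is 10.5% where 9.78% of all genes were called. The higher ones were Bnip3 (log2 fold change 0.60, SE 0.08, edgeR adjusted p = 0.000681), the motor adaptor Trak1 (0.27, edgeR adjusted p = 0.0114) and the rhomboid protease Parl (0.23, edgeR adjusted p = 0.00525), and the lower one was the phosphatase Pgam5 (-0.29, edgeR adjusted p = 0.00579). In M2 edgeR, DESeq2 and limma called 0 of 38, with 5 at an unadjusted p under 0.05. The difference between the responses was called for Trak1 (-0.34, SE 0.08, edgeR adjusted p = 0.0383), in 2 of 12 fits without 1 library, while its call in M0 was kept in 4 of 6.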

How the data were processed

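Poly(A) RNA of 12 mouse BMM cultures was sequenced with 75 nt single reads (3 libraries in each of 4 groups, taken from the sample labels), and p-values measure the spread between these libraries. Per the labels and methods, the authors processed the reads with the Grape-nf pipeline on GRCm38/mm10, with FastQC 0.11.2 and DESeq2 1.40.2; the counting program and its strand setting are not given in the sources used here. The deposited library tables hold expected counts (estimated counts, where a read that fits more than one gene is split among them) and TPM, both made by the authors. The deposited DESeq2 tables supplied gene symbols, and their fold changes and p-values were not used.

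Expected counts were rounded. Genes were filtered with filterByExpr by group, scaled by TMM and tested with the quasi-likelihood F test of edgeR 4.0.16 in R 4.3.3, with 12846 genes, all 12 libraries and 1 coefficient per group in 1 model (biological coefficient of variation 8.08%). Each p was adjusted over all genes by the Benjamini-Hochberg method, and called means an adjusted p under 0.05. For a single gene, 3 against 3 libraries allow no exact permutation p below 0.1. SEs are the fold change over the root of F. Alternatives were RLE size factors, other filters, DESeq2 1.42.0, a replicate block, limma 3.58.1 (pseudocounts of 1 and 0.1 on log2 TPM), only the 6 libraries of a comparison, Samm50 counted as import, and leaving out each library; leaving out both WT libraries numbered 3 was added after seeing the data. The edgeR fit with 1 coefficient per group was tested on simulated counts, and the alternatives were not. Same-numbered M0 and M2 libraries deviated together, with correlations of 0.331, 0.103 and 0.364 in WT and of 0.166, 0.16 and 0.209 in KO, so that the number pairs them; across the genotypes they did not.

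Members and lists were chosen with earlier results of these data known. Values per library are given for members called between the genotypes or for the difference of the responses, the members with the smallest p in these comparisons, the import and dynamics members with the largest IL-4 changes, and the highest TPM of each role. Of the pathway lists, up to 4 called genes averaging 5 CPM or more are named. Expected counts were whole (within 0.001) in every library for 27 members; those of Timm23, Tomm6, Timm8a1, Timm17a, Timm10b and Tomm20 were not in 10 or more libraries, and for Dnm1l and Pink1 in 1, so that these are uncertain. Exons of 14 members overlap genes on the other strand and those of 5 overlap genes on the same strand. Calculations also used Python 3.11.15, numpy 2.4.6, pandas 2.3.3 and matplotlib 3.10.9.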

Additional observations from a re-analysis of the deposited data

Results flagged for a closer look

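The IL-4 response of Timm8a1 differed between the genotypes by a log2 fold change of 0.57 (KO minus WT, SE 0.14, edgeR adjusted p = 0.0424), tested as the difference itself over the 12 libraries. The gene was higher with IL-4 in 3 of 3 KO pairs and lower in 2 of 3 WT pairs. The call was lost in 10 of 12 fits without 1 library and with limma on log2(TPM + 1) (adjusted p = 0.112).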

How the results depend on the processing

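No result changed direction under a setting while being called. Gene counts past the threshold were 1256 (M0), 344 (M2), 6428 and 6784 (IL-4 in WT and KO) and 416 (difference). With DESeq2 the M2 count was 718 and that of the difference 810, with 2 other dynamics genes. With RLE size factors import calls were 1 in M0 and 0 in M2. Without the low-count filter import calls were 1 and other import calls 0 in M0. With only the 6 libraries of a comparison, 165 genes were called in M2 and import calls were 1 in M0 (Timm9) and 0 in M2. Limma on log2(TPM + 1) and log2(TPM + 0.1) called 752 and 700 genes in M0, 70 and 57 in M2 and 113 each for the difference; import calls were 1 in M0 and 0 in M2 and for the difference, dynamics calls 3 for IL-4 in KO, other import calls 9 in KO (log2(TPM + 1)), and other dynamics calls 0 for the difference. Medians on these scales were -0.02 and -0.021 (dynamics, M2), 0.065 and 0.066 (import, IL-4 in WT), 0.058 and 0.059 (dynamics, WT), 0.146 and 0.149 (import, KO) and 0.071 and 0.073 (dynamics, KO). The cause was not tested. With the replicate block, 1003 genes were called for the difference, with 2 import, 1 other import and 2 other dynamics genes, and 13 import members for IL-4 in WT; for the genotypes, whose numbers do not pair the libraries, it gave 1322 genes in M0 with 1 import call and 413 in M2 with 0. Without both WT libraries numbered 3, 1098 genes were called in M2, with 1 other import gene there, 2 in M0 and 2 import members for the difference.

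Leaving out 1 library gave 461 to 1461 genes in M0, 25 to 298 in M2 and 183 to 643 for the difference. Import calls were 0 to 1 in M0, 0 in M2 and 0 to 1 for the difference, other import calls 0 to 1 in M0, dynamics calls 3 to 4 for IL-4 in KO and other dynamics calls 0 to 1 for the difference. Medians were 0.006 to 0.035 (dynamics, M2), 0.072 to 0.144 (import, IL-4 in WT), 0.072 to 0.182 (import, difference) and -0.029 to 0.032 (dynamics, difference). Fewer samples were fitted there. For the named members, 724 of the other values kept their side of the threshold, 20 gained and 30 lost a call, and without 1 library 602 kept it, 5 gained and 41 lost one. The 3 libraries per group limit the M0 and M2 comparisons, in which effects of the members were under 0.4 on the log2 scale.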

Other observations

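In KO M0 the first library was the highest of its group for 14 of 23 import members and in WT M0 the third library for 17, against 1 and 3 of the 10 dynamics members. In KO M2 the first library was the highest for 17 import members and the lowest for 6 of the 10 dynamics members.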
